A study of Mus musculus with 16 samples.

Results

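The 10 genes described here are Sqstm1, Htatip2, Tkt, G6pdx, Pgd, Nqo1, Txnrd1, Srxn1, Gclc and Gclm, which textbooks connect through the transcription factor NRF2. They were taken by symbol from a count table of 18346 genes measured in mouse hearts. All 10 were in the table, with whole-number counts between 85 and 7773 in every one of 16 hearts, and all 10 were among the 13373 genes tested. The genes were picked with earlier results of the same hearts in view. Sqstm1, Htatip2 and Tkt were already known to stand out between young knockout and young wild-type hearts, and G6pdx in wild-type ageing; which values chose the others is not recorded. The p-values given below are therefore the values these genes have in a fit of the whole table, given as a description, and none of them is an independent test.

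NRF2, encoded by Nfe2l2, switches on genes for detoxification and for the supply of glutathione, thioredoxin and NADPH. In unstressed cells the adaptor KEAP1 holds NRF2 and hands it to a CUL3 ubiquitin ligase, and oxidants or electrophiles release it. p62, the product of Sqstm1, is an autophagy receptor that can bind KEAP1, and Sqstm1 is itself an NRF2 target. The pentose phosphate pathway draws on glucose 6-phosphate to make NADPH, which the heart uses to keep glutathione and thioredoxin reduced. NRF2 binds DNA with a small MAF protein at the antioxidant response element.

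The series measured RNA from whole dissected hearts of C57BL/6J mice by bulk RNA sequencing, with 4 hearts described as independent biological replicates in each of 4 groups. The groups were wild-type (WT) mice at 8 weeks (young WT), WT mice at 25 months (aged WT), mice with a systemic knockout (KO) of Armh4 at 8 weeks (young KO), and the same KO at 25 months (aged KO). All mice were kept on a normal diet with no agent given; the sources used here give neither the sex of the animals nor the design of the knockout allele. The labels do not say whether the WT mice were littermates of the KO mice.

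Library totals ran from 11456500 to 13298660 counts. Armh4, the targeted gene, had 158 to 254 counts in the 8 WT hearts and 1 to 22 in the 8 KO hearts. The 8 cardiomyocyte markers summed to between 65723 and 92517 CPM (read counts relative to the scaled size of the library) in every heart. The 10 most abundant genes took 11.9 to 14.2% of each library. No 2 hearts of a group agreed within sampling noise (lowest chi-square per degree of freedom 3.67).

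Promoter sequence was looked at first, because an antioxidant response element is what NRF2 target promoters share in textbooks. The 9-base core TGACNNNGC was searched on both strands in the 250 bases before each RefSeq start site of mouse build GRCm38.p6, a different build from the one the counts were made on. Of the 9 genes with a listed promoter (all but Gclc), 4 held a match: G6pdx, Txnrd1, Htatip2 and Gclm. An element outside these 250 bases would have been missed, so the absence of a match does not show that a gene lacks one. For comparison, 10.2% of 32851 promoter windows and 11.5% of 27025 genes held one. The 4 matches are shown with 10 bases on each side, 5′ to 3′ on the strand of the gene, with the matched bases in capitals; a match is a description of the letters and not evidence of binding.
G6pdx, chrX:74428919-74428947, minus strand: aggcgggtcaGCTCAGTCAaagcacacgc
Txnrd1, chr10:82859104-82859132, plus strand: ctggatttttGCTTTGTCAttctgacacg
Htatip2, chr7:49759453-49759481, plus strand: gtctgagctgTGACTCAGCacttccctag
Gclm, chr3:122245413-122245441, plus strand: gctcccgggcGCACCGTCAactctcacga
The G6pdx match begins 57 bases before the start site. Its 29 printed bases overlap an annotated exon, and which gene owns that exon was not recorded. They also overlap the annotated spans of G6pdx and of Ikbkg, which is read from the other strand. The Txnrd1 match, 92 bases before the second of 3 listed starts, and the Htatip2 match, 49 bases before the second of 2, lie outside annotated exons but inside the genes' own spans. The Gclm match begins 134 bases before the start, outside any annotated gene. In Htatip2 the match reads in the direction of the gene, and in the other 3 it reads on the opposite strand.

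Htatip2 is shown at greater length, since it had the largest change with age in WT hearts and was the 1 gene of the 10 whose difference in age change between genotypes passed the threshold, a pass that most fits leaving out 1 heart lost. The 120 bases directly before its second start, chr7:49759392-49759511 on the plus strand of GRCm38.p6, carry the match in capitals.
Htatip2: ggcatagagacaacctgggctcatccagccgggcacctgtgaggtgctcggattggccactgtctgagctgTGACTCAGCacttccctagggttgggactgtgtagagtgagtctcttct

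Levels can be compared between genes only per length, and the deposited fragments per kilobase and library size (FPKM) give that scale. Averaged over the 16 hearts, Sqstm1 stood at 284 FPKM, above 97.5% of the genes tested. Nqo1 followed at 59.6 FPKM, then Htatip2 at 28.1, Txnrd1 at 26.3 and Pgd at 20.0 FPKM. Srxn1 (12.3 FPKM), Tkt (11.5) and Gclm (11.2) lay close together, and Gclc (6.88) and G6pdx (5.03) were lowest, G6pdx being above 38.6% of the genes tested. All 10 transcripts were thus measured well above a count of 0, the lowest count being 85, for G6pdx.

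**Figure D1:**
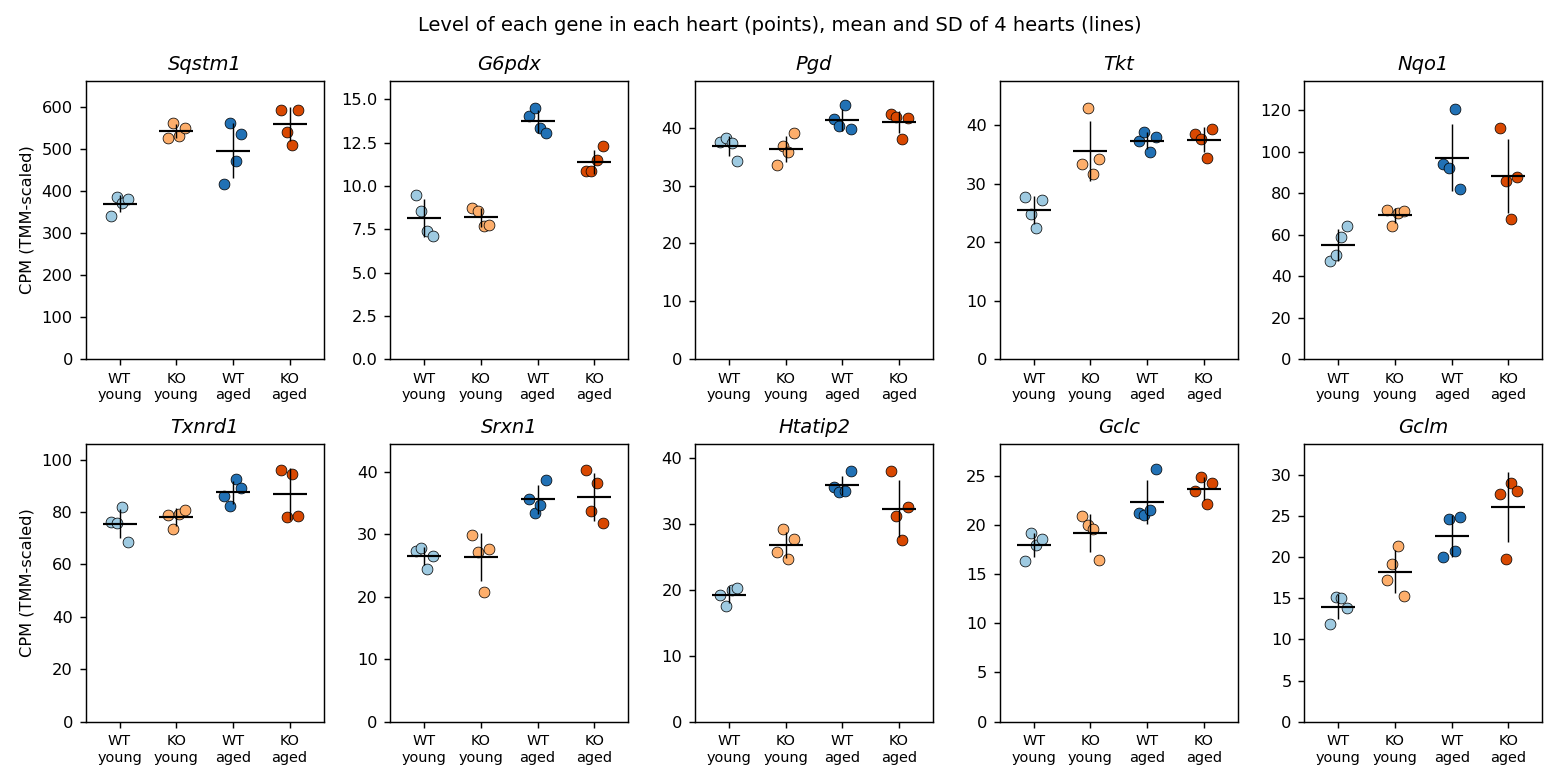
Each panel plots 1 gene's level in CPM scaled by the trimmed mean of M values (vertical axis, from 0) in the 4 groups; points are hearts, the horizontal line is the mean and the vertical line the SD of 4 hearts. For all 10 genes the aged WT hearts lie above the young WT hearts, and for Sqstm1, Tkt, Htatip2 and Gclm the young KO hearts do too.

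The largest contrast was between the age groups of WT mice. The 4 aged WT hearts were above the 4 young WT hearts, without overlap, for 10 of the 10 genes, where 12% of all genes tested were higher without overlap. In edgeR's quasi-likelihood test, 8 of the 10 passed an adjusted p of 0.05 upward, against 11.8% of all genes tested in that direction; since G6pdx at least was chosen from this contrast, nothing is read from the difference. The median change of the 10 was 0.49 on the log2 scale, beside -0.01 for all genes tested. In the KO mice the same contrast gave 3 of 10 upward (G6pdx, Srxn1 and Gclm), against 5.03% of all genes tested, with a median of 0.28. Both KO age groups were separated without overlap for 3 genes (G6pdx, Srxn1 and Gclc), against 8.71% of genes tested that were higher without overlap.

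Between genotypes, 3 of 10 genes passed upward in young KO against young WT hearts (Sqstm1, Htatip2 and Tkt), where 0.0523% of genes tested, 7 in number, did so. These 3 were chosen from this contrast, so their share of the 7 is a restatement of the choice. Groups were separated upward for 4 of the 10, those 3 and Gclm, against 4.06% of genes tested. In aged KO against aged WT hearts none of the 10 passed, against 0.875% of genes tested in either direction. At an unadjusted p under 0.05, 1 of the 10 did so in edgeR (G6pdx), a share close to the 10.9% of all genes tested, and DESeq2 called 0 after adjustment. The 4 comparisons share groups of hearts (young WT hearts, for example, are the base of 2 of them), so they are not independent of each other.

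**Figure D2:**
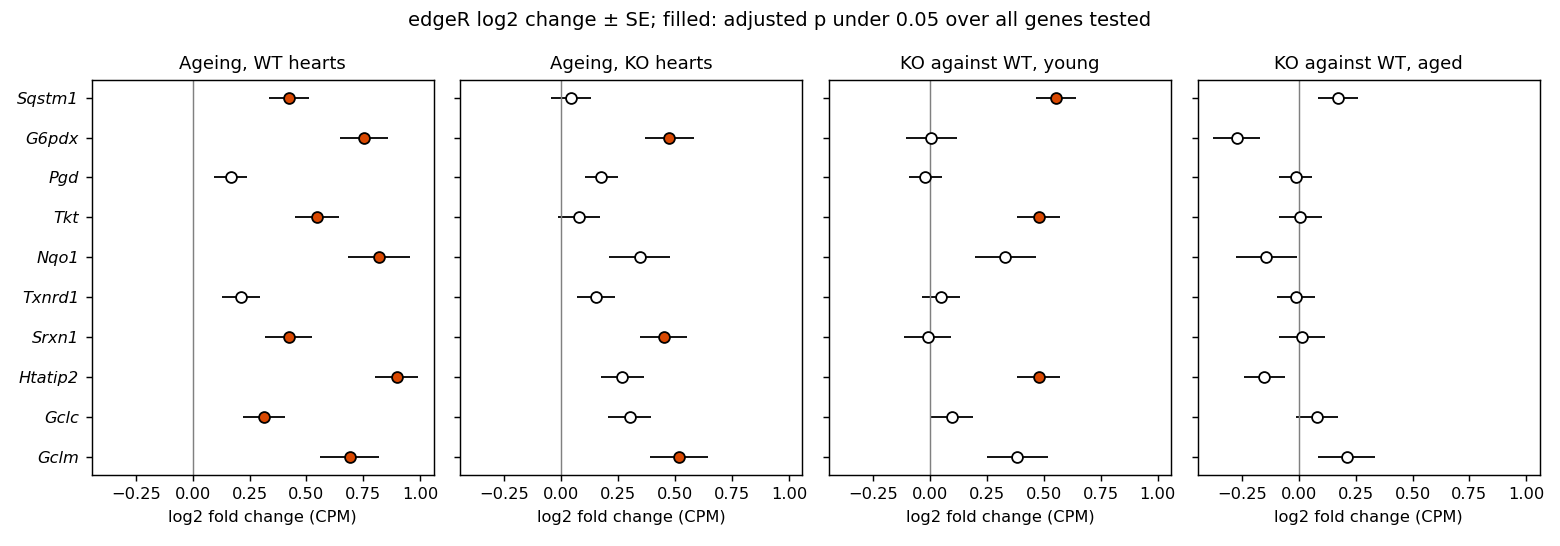
The log2 fold change of each gene in CPM (horizontal axis) with its standard error is plotted for ageing in WT hearts, ageing in KO hearts, and KO against WT in young and in aged hearts; filled points passed an adjusted p of 0.05 over all genes tested. Filled points number 8, 3, 3 and 0 from left to right.

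Sqstm1 encodes p62, the autophagy receptor that sequesters KEAP1. In young WT hearts 29, 34, 39 and 42 (the numbers are the animals') it stood at 342, 385, 372 and 382 CPM, and in young KO hearts 27, 31, 38 and 53 at 526, 563, 532 and 551 CPM. Aged WT hearts 1, 4, 5 and 12 gave 418, 562, 472 and 535 CPM, and the aged KO hearts (KO_Aged-114, KO_Aged-115, KO_Aged-122 and KO_Aged-125) gave 594, 541, 511 and 592 CPM. The young WT hearts were the lowest group and overlapped none of the others, while the other 3 groups overlapped their neighbours in the order aged WT, young KO, aged KO.

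Young KO hearts thus had 1.47 times the Sqstm1 level of young WT hearts, a log2 difference of 0.55 ± 0.09 (SE; edgeR adjusted p = 0.0115, rank 5 of all genes by p). That value stopped passing when young WT heart 39 or young KO heart 31 was left out (highest adjusted p = 0.058). With age, Sqstm1 rose by 0.42 ± 0.09 on the log2 scale in WT hearts (edgeR adjusted p = 0.0017), and the KO difference with age was 0.04 ± 0.09 (edgeR adjusted p = 0.828). The difference between these age changes was -0.38 ± 0.12 and did not pass (edgeR adjusted p = 0.199). In aged hearts the KO-WT difference was 0.17 ± 0.09 (edgeR adjusted p = 0.501). Annotated exons of Sqstm1 overlap those of Mrnip on the other strand, and the sources used here do not say whether counting used strand. Mrnip itself differed by -0.02 on the log2 scale between young KO and young WT hearts (edgeR adjusted p = 0.977). With age it differed by 0.42 in WT hearts (edgeR adjusted p = 0.0876), as much as Sqstm1, and by 0.48 in KO hearts (edgeR adjusted p = 0.097); the part of shared reads in the age values of Sqstm1 was not tested.

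The oxidative branch of the pentose phosphate pathway is represented by G6pdx and Pgd, the NADPH-producing dehydrogenases of glucose 6-phosphate and 6-phosphogluconate. G6pdx, the entry and rate-limiting step, was at 9.50, 8.53, 7.41 and 7.13 CPM in the young WT hearts and 8.74, 8.56, 7.67 and 7.76 CPM in the young KO hearts. The aged WT hearts were at 14.0, 14.5, 13.4 and 13.0 CPM and the aged KO hearts at 10.9, 10.9, 11.5 and 12.3 CPM. The young groups overlapped fully, every aged heart was above every young heart, and every aged KO heart was below every aged WT heart.

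G6pdx rose 1.68-fold with age in WT hearts (log2 0.75 ± 0.11, edgeR adjusted p = 4.35e-05) and 1.39-fold in KO hearts (0.47 ± 0.11, edgeR adjusted p = 0.00922). Young KO and WT hearts differed by 0.01 ± 0.11 (edgeR adjusted p = 0.987), and the aged KO hearts by -0.27 ± 0.10 from the aged WT ones, which did not pass (unadjusted p = 0.0163, edgeR adjusted p = 0.296). In aged KO against aged WT hearts, 2.94% of all genes tested were lower without overlap. Ikbkg, whose exons overlap G6pdx on the other strand, differed with age by 0.01 in WT hearts (edgeR adjusted p = 0.932) and 0.22 in KO hearts (edgeR adjusted p = 0.0878).

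Pgd, the third enzyme of the branch, moved within a narrow range. Young WT hearts gave 37.6, 38.2, 37.4 and 34.2 CPM, aged WT hearts 41.4, 40.3, 44.0 and 39.8, young KO hearts 33.6, 36.8, 35.7 and 39.1, and aged KO hearts 42.4, 41.8, 38.1 and 41.6 CPM. Aged WT hearts lay just above young WT hearts, and the KO age groups overlapped. Its age difference was 0.17 ± 0.07 in WT hearts (edgeR adjusted p = 0.105) and 0.17 ± 0.07 in KO hearts (edgeR adjusted p = 0.16); limma on log2(FPKM + 1) passed both (adjusted p = 0.0164 and 0.0273).

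Tkt encodes transketolase, which exchanges carbon units between pentose phosphates and glycolysis in the non-oxidative branch. It was at 27.8, 24.8, 22.5 and 27.1 CPM in young WT hearts and 33.3, 43.0, 31.6 and 34.3 CPM in young KO hearts. Aged WT hearts gave 37.2, 38.8, 35.4 and 37.9 CPM and aged KO hearts 38.5, 37.7, 34.4 and 39.4 CPM. As with Sqstm1, young WT hearts were the lowest and overlapped no other group, and the other 3 groups overlapped one another.

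The young KO-WT difference of Tkt was 0.48 ± 0.10 on the log2 scale (1.39-fold, edgeR adjusted p = 0.0406), and its rise with age in WT hearts was 0.55 ± 0.10 (1.46-fold, edgeR adjusted p = 0.000364). The young KO-WT value stopped passing when any 1 of the 8 hearts was left out (highest adjusted p = 0.181), and on both FPKM scales. In KO hearts the age difference was 0.08 ± 0.09 (edgeR adjusted p = 0.687), and the difference between the age changes was -0.47 ± 0.13, which did not pass (unadjusted p = 0.00222, edgeR adjusted p = 0.13). Aged KO and aged WT hearts differed by 0.01 ± 0.09.

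Other enzymes of the pentose phosphate pathway were counted from a list of 10, of which 8 were tested. In WT ageing 1 rose and 1 fell, which is near the background of 11.8% and 9.93% of all genes tested: Prps2, a phosphoribosyl pyrophosphate synthetase that uses ribose 5-phosphate, from 19.0 to 37.5 CPM (log2 0.98 ± 0.11, edgeR adjusted p = 3.4e-06), and Rpia, the ribose 5-phosphate isomerase (log2 -0.33 ± 0.10, edgeR adjusted p = 0.0277). In KO ageing Prps2 again rose, by 0.62 ± 0.11 (edgeR adjusted p = 0.00112; 5.03% of all genes tested rose), and none fell. Neither genotype comparison called any of the 8. The median change of the list was 0.09 in WT ageing and -0.06 in KO ageing.

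Of 7 other NADPH-producing enzymes, Idh1, the cytosolic isocitrate dehydrogenase, rose with age by 0.34 ± 0.09 in WT hearts (edgeR adjusted p = 0.00768) and by 0.36 ± 0.09 in KO hearts (edgeR adjusted p = 0.0132), a count near the 11.8% and 5.03% of all genes tested that rose. In KO ageing 2 of the 7 fell, against 2.6% of all genes tested: the mitochondrial malic enzyme Me3 (-0.35 ± 0.08, edgeR adjusted p = 0.0121) and the mitochondrial transhydrogenase Nnt (-0.55 ± 0.15, edgeR adjusted p = 0.0269). Nnt spread widely in young KO hearts, from 596 to 1091 CPM, and these overlapped the aged KO hearts at 528 to 666 CPM. These are RNA levels, and enzyme activity was not measured. Which Nnt allele this mouse strain carries, and whether it differed between animals, was not tested. The Nnt RNA level therefore does not show that a working transhydrogenase was made. No member of this list passed in either genotype comparison. The list medians were 0.05 in WT ageing and -0.18 in KO ageing.

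Nqo1 and Htatip2 stood first among the 10 in WT ageing by size. Nqo1 encodes a quinone reductase that is a classical NRF2 target. It was at 47.3, 50.2, 58.7 and 64.1 CPM in young WT, 93.9, 91.9, 120.4 and 82.1 in aged WT, 71.6, 63.9, 70.5 and 71.2 in young KO, and 111.2, 85.6, 67.6 and 87.7 CPM in aged KO hearts. The WT age groups were far apart, whereas aged KO heart KO_Aged-122 lay within the young KO hearts. The rise in WT hearts was 1.76-fold (log2 0.82 ± 0.14, edgeR adjusted p = 0.00025); the KO age difference was 0.35 ± 0.13 (edgeR adjusted p = 0.132), and 0.46 without that heart, where it passed (edgeR adjusted p = 0.0383). The KO-WT difference was 0.33 ± 0.14 at 8 weeks (edgeR adjusted p = 0.372) and -0.14 ± 0.13 at 25 months (edgeR adjusted p = 0.774). Nqo1 was also the most variable of the 10 within groups, with an SD of 0.22 on the log2 scale, compared with 0.07 for Pgd.

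Htatip2, which encodes a protein with an oxidoreductase fold, was at 19.2, 17.5, 20.1 and 20.4 CPM in young WT hearts and 35.7, 34.9, 35.1 and 38.1 in aged WT hearts. Young KO hearts gave 25.8, 29.2, 24.7 and 27.8 CPM and aged KO hearts 38.1, 31.2, 27.6 and 32.6 CPM. Young KO hearts lay between the WT age groups with no overlap on either side, and aged KO hearts overlapped both the young KO and the aged WT hearts.

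The rise of Htatip2 with age in WT hearts was 1.86-fold (log2 0.90 ± 0.09, edgeR adjusted p = 2.19e-06), and the KO age difference was 0.27 ± 0.09 (edgeR adjusted p = 0.0874); the latter passed on both FPKM scales with limma (adjusted p = 0.0312 and 0.0303) and, in edgeR, without heart KO_Aged-122 (adjusted p = 0.0321). The test of the difference between these changes gave -0.63 ± 0.13 (edgeR adjusted p = 0.0382), the 1 value of the 10 genes that passed this test, which 0.336% of all genes tested passed downward. It stopped passing in 11 of the 16 fits that left out 1 heart (highest adjusted p = 0.0979). The young KO-WT contrast from which Htatip2 was chosen enters this difference, so it is no independent test. Tkt (-0.47 ± 0.13), Nqo1 (-0.47 ± 0.19) and Sqstm1 (-0.38 ± 0.12) had differences of the same sign that did not pass, which does not show that they changed alike in both genotypes. Young KO hearts exceeded young WT hearts by 0.48 ± 0.10 (edgeR adjusted p = 0.0406), a value that stopped passing when any 1 of the 8 hearts was left out (highest adjusted p = 0.182). In aged hearts the KO-WT difference was -0.15 ± 0.09 (edgeR adjusted p = 0.6).

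Gclc and Gclm encode the catalytic and the modifier subunit of glutamate-cysteine ligase, the first and limiting step of glutathione synthesis. Gclc was at 16.3, 19.1, 17.9 and 18.5 CPM in young WT, 21.2, 21.0, 21.5 and 25.7 in aged WT, 20.8, 20.0, 19.6 and 16.4 in young KO, and 23.5, 24.8, 22.1 and 24.3 CPM in aged KO hearts. Both age contrasts were free of overlap, and the genotypes overlapped at both ages. Its age difference was 0.31 ± 0.09 in WT hearts (edgeR adjusted p = 0.0213) and 0.30 ± 0.09 in KO hearts, just short of the threshold (edgeR adjusted p = 0.0545; DESeq2 adjusted p = 0.0429). The WT value stopped passing without young WT heart 29 or 39 or aged WT heart 12 (highest adjusted p = 0.0798).

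Gclm was at 11.8, 15.1, 15.1 and 13.8 CPM in young WT and 19.9, 24.6, 20.7 and 24.8 CPM in aged WT hearts. Young KO hearts gave 17.2, 19.1, 21.3 and 15.3 CPM, and aged KO hearts 27.6, 19.7, 28.9 and 28.0 CPM. The lowest young KO heart was only just above the highest young WT heart, and aged KO heart KO_Aged-115 fell among the young KO hearts. Gclm rose with age by 0.69 ± 0.13 in WT hearts (edgeR adjusted p = 0.000749) and by 0.52 ± 0.13 in KO hearts (edgeR adjusted p = 0.0154). The KO value stopped passing without young KO heart 53 or aged KO heart KO_Aged-122 (highest adjusted p = 0.0667). The young KO-WT difference of 0.38 ± 0.13 did not pass (edgeR adjusted p = 0.288), nor did the aged one of 0.21 ± 0.13 (edgeR adjusted p = 0.59). Gclm also overlaps an annotated pseudogene, Gm6061, so reads could have been shared between them.

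Txnrd1 and Srxn1 serve the thioredoxin and peroxiredoxin system: the cytosolic thioredoxin reductase spends NADPH, and sulfiredoxin restores overoxidised peroxiredoxins. Txnrd1 was at 76.0, 75.6, 82.0 and 68.5 CPM in young WT, 86.2, 82.2, 92.6 and 89.0 in aged WT, 79.0, 73.3, 79.3 and 80.8 in young KO, and 96.2, 77.9, 94.7 and 78.6 CPM in aged KO hearts. Aged WT heart 4 cleared the highest young WT heart by a small margin, and 2 of the 4 aged KO hearts lay within the young KO hearts. The age difference was 0.21 ± 0.08 in WT hearts (edgeR adjusted p = 0.072) and 0.15 ± 0.08 in KO hearts (edgeR adjusted p = 0.297). In WT hearts it passed with DESeq2 (adjusted p = 0.04997) and with limma on log2(FPKM + 1) (adjusted p = 0.0154).

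Srxn1 was at 27.3, 27.8, 24.5 and 26.6 CPM in young WT, 35.7, 33.4, 34.6 and 38.7 in aged WT, 29.8, 27.2, 20.8 and 27.7 in young KO, and 40.2, 33.7, 38.2 and 31.9 CPM in aged KO hearts. Young and aged hearts did not overlap in either genotype, and the genotypes overlapped at both ages. Its age changes were 0.42 ± 0.10 in WT hearts (edgeR adjusted p = 0.00557) and 0.45 ± 0.10 in KO hearts (edgeR adjusted p = 0.00946), with a difference between them of 0.03 ± 0.15 (edgeR adjusted p = 0.967). Its KO-WT differences were -0.01 ± 0.10 in young and 0.02 ± 0.10 in aged hearts.

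Among 12 thioredoxin and peroxiredoxin partners, 1 rose in WT ageing, the peroxiredoxin gene Prdx1 (0.29 ± 0.09, edgeR adjusted p = 0.0213), a count near the 11.8% of all genes tested that rose. In KO ageing 1 fell, where 2.6% of all genes tested did: the mitochondrial thioredoxin reductase gene Txnrd2 (-0.25 ± 0.08, edgeR adjusted p = 0.049). None of the 12 passed in a genotype comparison. The list medians were 0.02 and -0.03 in WT and KO ageing.

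**Figure D3:**
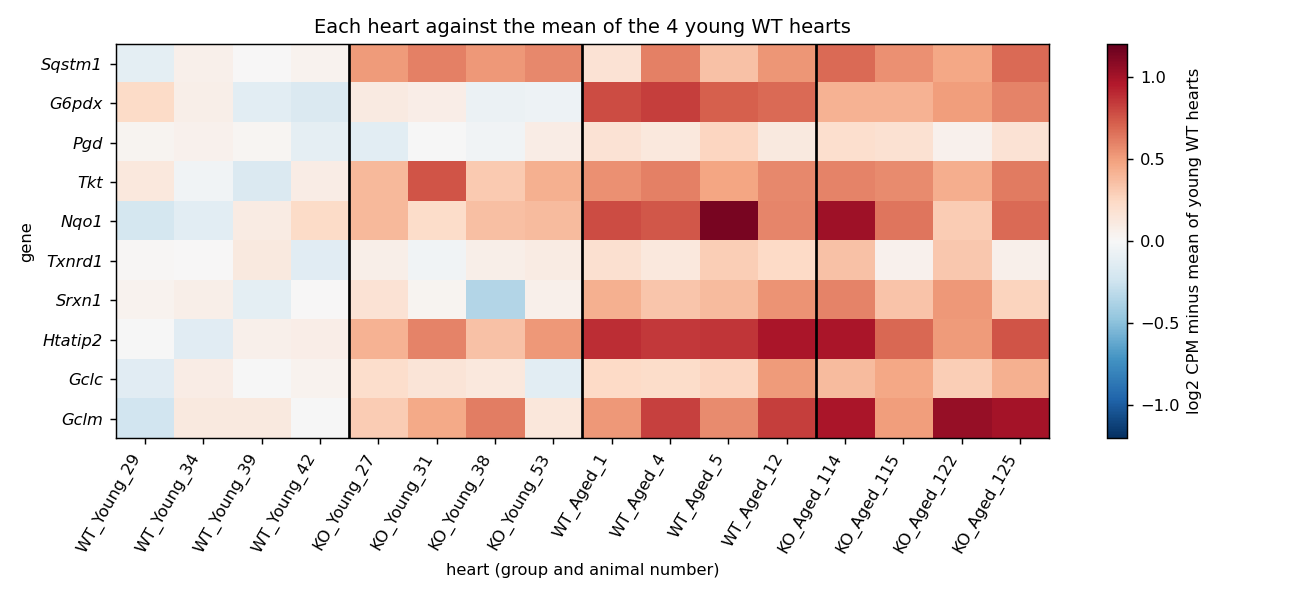
Colours give each heart's log2 CPM minus the mean of the 4 young WT hearts, for the 10 genes (rows) in 16 hearts (columns, grouped by genotype and age). Values run from -0.35 (Srxn1 in young KO heart 38) to 1.14 (Nqo1 in aged WT heart 5), and in the young KO block the rows of Sqstm1, Tkt, Htatip2 and Gclm lie above every young WT heart.

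The 10 genes fell into uneven sizes of difference between young KO and young WT hearts. There 5 of the 10 genes, Sqstm1, Htatip2, Tkt, Gclm and Nqo1, had an unadjusted p under 0.05, where 11.0% of all genes tested did. Of these 5, Sqstm1, Htatip2 and Tkt were chosen from this contrast. The 5 log2 differences ran from 0.33 to 0.55. The other 5, G6pdx, Pgd, Txnrd1, Srxn1 and Gclc, ranged from -0.02 to 0.10. Within groups, the hearts departed little from their group means when averaged over the 10 genes. Aged KO heart KO_Aged-114 was the farthest, 0.11 on the log2 scale above its group and with 8 of 10 genes above the group mean, and aged KO heart KO_Aged-115 was 0.07 below.

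Nfe2l2, which encodes NRF2 itself, did not rise in any comparison. It was at 127.4 ± 3.6 CPM (SD, n = 4) in young WT, 105.2 ± 8.3 in aged WT, 109.6 ± 4.2 in young KO and 103.5 ± 2.5 CPM in aged KO hearts. It fell with age in WT hearts (log2 -0.28 ± 0.07, edgeR adjusted p = 0.00687), and it was lower in young KO than in young WT hearts without overlap, a difference that did not pass (-0.22 ± 0.07, edgeR adjusted p = 0.227). In that comparison 4.43% of all genes tested were lower without overlap. Its changes in KO ageing (-0.08 ± 0.07, edgeR adjusted p = 0.537) and between the aged groups (-0.02 ± 0.07, edgeR adjusted p = 0.951) were smaller. Keap1 gave 72.1 ± 4.0, 74.3 ± 10.3, 79.9 ± 5.3 and 82.3 ± 6.6 CPM in the WT hearts at 8 weeks and 25 months and in the KO hearts at the same ages, and passed in no comparison. Its log2 differences were 0.04 ± 0.09 in WT ageing, 0.04 ± 0.09 in KO ageing, and 0.15 ± 0.09 between genotypes at both ages. Of the 9 regulators listed, which include Cul3, Rbx1, Bach1 and the small MAF genes, Nfe2l2 in WT ageing was the 1 call in the 4 comparisons, where 9.93% of all genes tested fell in WT ageing. Between young KO and young WT hearts 2 of the 9, Nfe2l2 and Maff, were lower without overlap. The small MAF gene Maff had the larger relative difference, with means of 12.3 CPM in young WT and 8.55 CPM in young KO hearts, and did not pass either. Between the aged groups 1 of the 9 was higher in KO without overlap, against 2.1% of all genes tested. NRF2 activity is set largely at the level of protein, which was not measured.

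Other established NRF2 targets were counted from a list of 28, of which 27 were tested. Prdx1, Prdx6, Txn1 and Me1 also stand in the lists above. This list, like the others, was chosen with earlier results of the same hearts known. Its counts are a description, and nothing is read from their distance to the shares of all genes. In WT ageing 14 of the 27 rose, where 11.8% of all genes tested did, and none fell, with a median of 0.45 (all genes -0.01). The 4 with the lowest adjusted p were Ephx1, a microsomal epoxide hydrolase (0.59 ± 0.08, edgeR adjusted p = 2.42e-05), Pir, which encodes pirin (0.98 ± 0.14, edgeR adjusted p = 3.59e-05), the glutathione transferase gene Gsta4 (0.62 ± 0.09, edgeR adjusted p = 5.66e-05) and the ferritin light chain gene Ftl1 (0.69 ± 0.11, edgeR adjusted p = 0.000215). In KO ageing 9 of the 27 rose, against 5.03% of all genes tested, and none fell, with a median of 0.16. The first 4 were Ephx1 (0.78 ± 0.08, edgeR adjusted p = 6.34e-06), the oxidative stress-induced growth inhibitor gene Osgin1 (1.36 ± 0.19, edgeR adjusted p = 0.000157), the aldo-keto reductase gene Akr1b8 (1.18 ± 0.26, edgeR adjusted p = 0.00744) and Pir (0.56 ± 0.13, edgeR adjusted p = 0.0123).

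Neither genotype comparison called any of the 27, nor did the test of the difference between the age changes; the list median was 0.15 in young KO against young WT hearts and -0.01 in aged ones. Ephx1 went from 60.6 ± 7.3 to 91.6 ± 4.8 CPM in WT hearts and from 54.3 ± 2.0 to 93.1 ± 3.5 CPM in KO hearts (SD, n = 4). Osgin1 was rare, at 2.41 ± 0.56 and 4.58 ± 1.05 CPM in young and aged WT hearts and 2.39 ± 0.23 and 6.13 ± 0.57 CPM in young and aged KO hearts. Gsta1 and Gsta2 are near-identical copies whose counts can be split between them, so their values are uncertain.

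**Figure D4:**
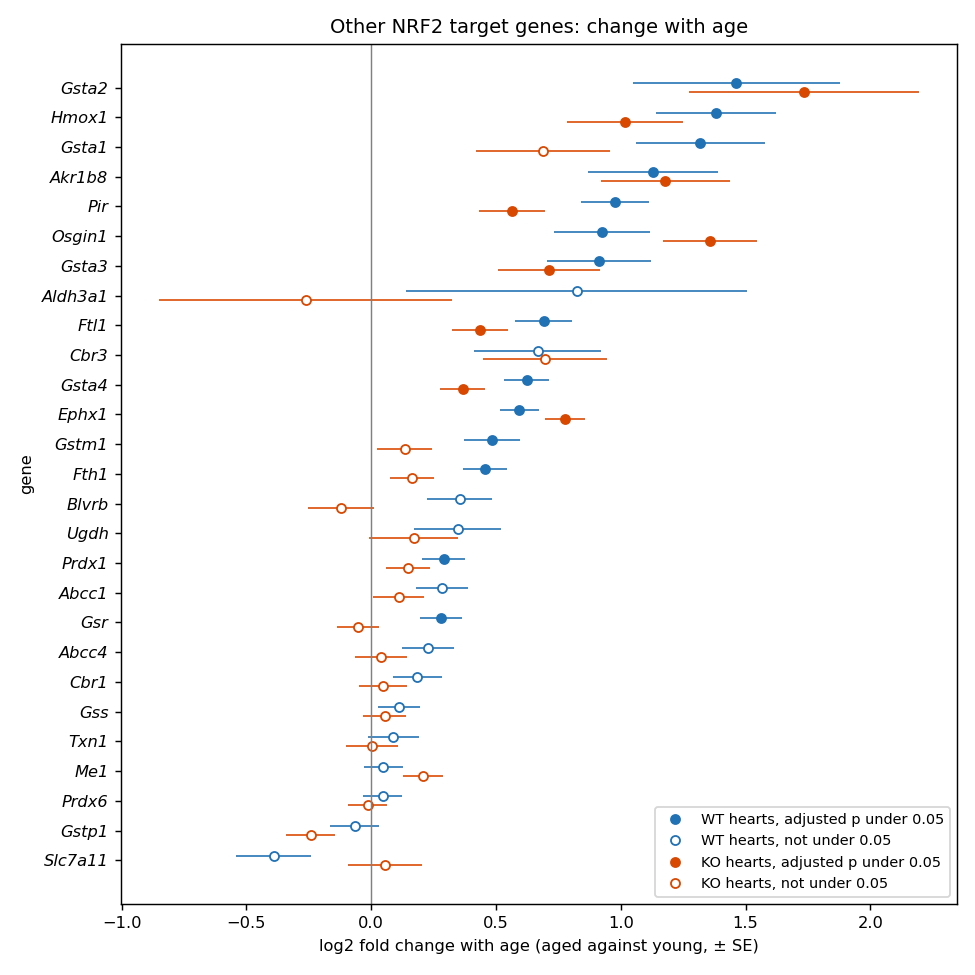
For 27 other NRF2 target genes (vertical axis, ordered by the WT value), points give the log2 fold change with age in WT and in KO hearts with its standard error (horizontal axis); filled points passed an adjusted p of 0.05. Filled points, 14 in WT and 9 in KO hearts, all lie to the right of 0.

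Because p62 is an autophagy receptor, the other receptors and the ATG8 family, which anchors receptors to the autophagosome, were counted as well. In WT ageing 2 of 10 rose, where 11.8% of all genes tested did, so the count is near the background: Gabarapl1, an ATG8 family gene, from 95.3 to 144.4 CPM (0.60 ± 0.10, edgeR adjusted p = 0.000214) and Optn, the receptor optineurin, from 147.9 to 192.8 CPM (0.38 ± 0.10, edgeR adjusted p = 0.00659). None of the 10 passed in KO ageing or between genotypes. In aged KO against aged WT hearts 2 of the 10, Optn and Gabarapl2, were lower without overlap, against 2.94% of all genes tested, and 0 were higher. Optn differed there by -0.39 ± 0.10, just short of the threshold (edgeR adjusted p = 0.0537). Between the young groups 1 of the 10 was higher in KO without overlap, against 4.06% of all genes tested. The list median was 0.04 in WT ageing and -0.03 in KO ageing.

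Genes with the level profile nearest to that of Sqstm1 over the 16 hearts, by the root mean square difference of centred log2 CPM among 12939 genes, were Bbs9 (0.11), Cln6 (0.12) and Wdr91 (0.12), where the SD of Sqstm1 itself over the hearts was 0.27. For G6pdx the nearest were Atp2a3 (0.14), Unc93b1 (0.14) and Tgfbi (0.15), with an SD of 0.35 for G6pdx. These are the ends of a ranking and carry no test.

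Markers of other cell types moved with age in the same hearts. In bulk tissue, fewer cells of a type and less RNA per cell cannot be told apart. Beside the marker counts below, 11.8% of all genes tested rose and 9.93% fell in WT ageing. In KO ageing 5.03% rose and 2.6% fell. Between aged KO and aged WT hearts 0.71% passed downward, and between the young groups 0.269% passed in either direction. The 10 macrophage markers summed to 259 to 369 CPM in young WT, 779 to 1174 in aged WT, 300 to 381 in young KO and 577 to 658 CPM in aged KO hearts. All 10 macrophage markers rose in WT ageing and 9 in KO ageing, and 1 of 10 passed downward in the aged KO-WT comparison. There 7 of 10 were lower without overlap, against 2.94% of all genes tested. Erythroid markers summed to 489 to 659, 947 to 1961, 565 to 1000 and 815 to 1683 CPM in the same order of groups, with 5 of 5 risen in WT ageing and 0 in KO ageing. Neutrophil markers summed to 1.81 to 2.49, 21.7 to 33.7, 1.77 to 3.95 and 4.74 to 14.96 CPM; 4 of 4 tested rose in WT ageing, 2 rose in KO ageing, and 2 passed downward in the aged KO-WT comparison. The defining marker Ly6g had no count outside aged WT hearts.

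The 8 cardiomyocyte markers summed to 81565 to 92502, 65723 to 80591, 79351 to 92517 and 67755 to 76972 CPM in the same order, with 2 of 8 fallen in WT ageing and 1 in KO ageing. The 5 adipocyte markers summed to 355 to 528, 664 to 968, 419 to 561 and 548 to 846 CPM, with the 1 tested, Fabp4, risen in both ageing comparisons. These sums were nearly all Fabp4, with means of 434, 768, 483 and 711 CPM. Adipoq, Plin1, Cidec and Lep were near 0 and not tested. Their means were 0.10, 0.26, 0.20 and 0.02 CPM in young WT and 0.06, 0.02, 0.08 and 0 CPM in aged WT hearts. A rise of Fabp4 alone does not show more adipocytes. In WT ageing 1 of 2 tested T and NK cell markers rose, and 2 of 6 fibroblast, 2 of 5 endothelial and 1 of 5 smooth muscle and pericyte markers fell; in KO ageing 1 of 5 endothelial markers fell. The aged KO-WT comparison had 1 of 2 T and NK cell markers lower. The 5 atrial markers summed to 275 to 486, 160 to 509, 274 to 718 and 182 to 662 CPM. None passed in any comparison, but all 5 had a log2 difference above 0 between KO and WT at both ages. Myl7, an atrial myosin light chain gene, ran from 0.17 to 9.57 CPM in young WT hearts and from 0 to 66.2 in young KO hearts. In aged WT hearts it ran from 0 to 0.24 and in aged KO hearts from 0.32 to 39.4 CPM, without overlap. Of all genes tested, 2.1% were higher without overlap in that comparison. Myl4 and Sln showed the same direction with overlapping hearts. Young KO heart 31, with no Myl7 count, had the highest Sqstm1, Tkt and Htatip2 levels of the young KO hearts. It had the lowest Nqo1 and Txnrd1 levels of that group. Sqstm1 ran only from 526 to 563 CPM in those 4 hearts, and the order of hearts within the group was not tested. Between young KO and young WT hearts no marker on any list passed, where 0.269% of all genes tested did, and the macrophage sums of both groups overlapped. All 5 erythroid markers were above 0 there on the log2 scale (median 0.51), 1 without overlap, against 4.06% of all genes tested. Of the 5 smooth muscle and pericyte markers 1 was above 0 (median -0.75). Of the 8 cardiomyocyte markers 1 was lower without overlap, against 4.43% of all genes tested. The part of these marker shifts in the age changes and in the genotype differences of the 10 genes was not tested.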

How the data were processed

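RNA from 16 hearts was sequenced by the submitters, whose processing notes name HISAT, Bowtie2 and build GRCm39 without versions; the counting tool and its use of strand are not given in the sources used here. The authors deposited expected counts per gene, 9.57 to 10.5% of them not whole per library, and FPKM values. Expected counts were rounded here and tested with edgeR 4.0.16 (filterByExpr, TMM, quasi-likelihood F test; 1 fit of 16 libraries, 12 residual degrees of freedom; R 4.3.3), with Benjamini-Hochberg adjustment over 13373 genes and a threshold of 0.05. Standard errors are the log2 change divided by the root of F. The robust form of edgeR's spread estimate was chosen after the results of both forms had been seen, because it gave the gene counts of an earlier analysis of these files; the default form is among the alternatives. CPM are counts relative to the TMM-scaled library size. DESeq2 1.42.0 and limma 3.58.1 (log2(FPKM + 1) and log2(FPKM + 0.1)) were alternatives. The fit was tested on simulated data. The members and gene lists were chosen with earlier results of these data known. All 10 members are named, with Nfe2l2, Keap1 and up to 4 called genes per list and comparison by adjusted p. Some other listed genes are named where a count or a sum rests on them. Marker lists cover cardiomyocyte, atrial, macrophage, neutrophil, T and NK, fibroblast, endothelial, smooth muscle and pericyte, erythroid and adipocyte genes. Promoters are RefSeq's (GRCm38.p6), matched by symbol and Entrez gene number together, and exon overlaps are from GENCODE. The edgeR p-values set a difference between groups, each of 4 hearts, against the spread of hearts within groups. That spread was estimated from all 16 libraries in 1 fit, with information shared between genes.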

Additional observations from a re-analysis of the deposited data

Results flagged for a closer look

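In 3 of the 40 sets of 4 hearts (10 genes in 4 groups), 1 heart stood far from the other 3 of its group by Dixon's criterion, which chance meets in about 1 set in 20. Nqo1, the quinone reductase gene, was at 63.9 CPM in young KO heart 31, below the other young KO hearts at 70.5 to 71.6 CPM. Gclc was at 25.7 CPM in aged WT heart 12, above the other aged WT hearts at 21.0 to 21.5 CPM. Gclm was at 19.7 CPM in aged KO heart KO_Aged-115, below the other aged KO hearts at 27.6 to 28.9 CPM. These are 3 different hearts and 3 different genes.

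For Htatip2 the KO change with age minus the WT change was -0.63 on the log2 scale (edgeR adjusted p = 0.0382), with all 4 aged WT hearts above all 4 young WT hearts and the KO age groups overlapping. The value stopped passing in 11 of the 16 fits that left out 1 heart (highest adjusted p = 0.0979), and Htatip2 was chosen from the young KO-WT contrast, which enters it.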

How the results depend on the processing

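Over the settings tried for the 10 genes' changes, 728 gene-and-setting values kept direction and side of the threshold, 36 lost a pass, 13 gained one and 43 changed sign. The passes lost were those of Sqstm1, Htatip2 and Tkt in young KO-WT, Gclc in WT ageing, Gclm in KO ageing and Htatip2 in the difference between age changes. Sign changes touched only values near 0 that had not passed. For G6pdx in young KO against young WT the value was -0.0041 without a filter on low counts and -0.0020 with only the 8 libraries. With 1 heart left out, young KO-WT values ranged from -0.044 to 0.094 (G6pdx), -0.066 to 0.098 (Srxn1) and -0.059 to 0.022 (Pgd), and aged KO-WT values from -0.018 to 0.046 (Tkt), -0.042 to 0.071 (Srxn1), -0.034 to 0.019 (Pgd) and -0.065 to 0.035 (Txnrd1). The differences between age changes ranged from -0.042 to 0.045 (Pgd), -0.080 to 0.063 (Gclc) and -0.087 to 0.080 (Srxn1).

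Counts over all genes moved more. Aged KO against aged WT gave 117 genes, 261 with DESeq2, 17 with only the 8 libraries and 73 with limma on log2(FPKM + 0.1). Young KO against young WT gave 36, 148 with DESeq2, 135 with only the 8 libraries and 15 with limma on log2(FPKM + 1), and the test of the difference between age changes gave 62, or 218 with DESeq2. Without edgeR's robust spread, the form chosen after both had been seen, the counts were 149 (aged KO-WT), 43 (young KO-WT), 2930 (WT ageing), 1026 (KO ageing) and 77 (difference), and the members called stayed at 0, 3, 8, 3 and 1. WT ageing calls were 1578 up and 1328 down, and 1905 and 730 with limma on log2(FPKM + 1); KO ageing calls were 672 and 348, and 846 and 183. Members called in KO ageing were 5 on both FPKM scales, where the main count was 3. The cause of these differences was not tested.

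Leaving out 1 heart gave 31 (without aged KO heart KO_Aged-115) to 251 genes (without aged WT heart 12) in aged KO-WT with 0 members, and 4 (without young WT heart 39 or young KO heart 31) to 21 genes in young KO-WT with 0 to 1 members. WT ageing gave 2111 to 2926 genes and 7 to 8 members, and KO ageing 644 (without young KO heart 53) to 875 genes and 2 to 4 members. The difference between age changes gave 25 (without young KO heart 31) to 171 genes (without aged WT heart 12) and 0 to 1 members. No paired analysis was possible because animal numbers are not shared between groups. Depth limits none of the 10 genes strongly: the lowest count was 85.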
